A study of Mus musculus with 6 samples.

Results

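The 9 genes described here encode basic helix-loop-helix (bHLH) transcription factors that carry neural cells from progenitor to neuron: Neurog1, Neurog2, Atoh1, Neurod4, Neurod1, Nhlh1, Nhlh2, Neurod2 and Neurod6. They are 9 of the 39179 genes in the deposited table, found by pairing its Ensembl mouse identifiers with symbols. The set was chosen by gene family and role, with the fold changes of an earlier look at these same libraries known, that of Neurod1 among them. Differences of these 9 genes between the groups are therefore given as descriptions, without their p-values. Where a member's place relative to the threshold of the fit over all genes is stated, it describes that fit and supports nothing. The cells under study were G392E-NS cells, mouse neural progenitor cells of the CD1 strain, taken from the cerebral cortex of E13.5 embryos, that stably overexpressed the G392E variant of neuroserpin and had been differentiated in culture. They were compared with GFP cells, of the same strain, tissue and stage and also differentiated, that stably overexpressed green fluorescent protein. Neuroserpin is a protease inhibitor of neurons, and its G392E variant polymerises in the endoplasmic reticulum and causes the dementia FENIB. Each group had 3 RNA sequencing libraries. The labels used here give neither the promoter of the constructs, the species of the neuroserpin, the days of differentiation nor whether replicates were separate cultures, so p-values measure only the spread between these libraries, which may be technical.

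A bHLH factor of this class pairs with a broadly expressed E protein and binds the E-box, a short palindromic DNA motif, in the genes it activates. The proneural members, Neurog1, Neurog2 and Atoh1, are switched on in dividing progenitors, commit them to the neuronal fate and induce Notch ligands that hold back neighbouring cells. They activate a second tier, Neurod4, Neurod1, Nhlh1 and Nhlh2, in cells that are leaving the cell cycle, and Neurod2 and Neurod6 follow in maturing neurons. In the developing cortex Neurog2 acts in progenitors of glutamatergic neurons, and Neurod2 and Neurod6 mark their postmitotic progeny. Atoh1 belongs to the rhombic lip of the hindbrain, the source of cerebellar granule cells, where Neurod1 is also strongly expressed.

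Libraries held 15507487 to 24835835 counts in G392E-NS and 16958952 to 22936447 in GFP, with 18573 to 19582 genes detected. Serpini1, the mouse neuroserpin gene, had 4.96 to 6.74 CPM (counts scaled to a common library total, with TMM factors) in G392E-NS and 4.20 to 5.17 CPM in GFP libraries, a difference that missed the threshold (log2 fold change 0.29, SE 0.19, adjusted p = 0.419, edgeR quasi-likelihood test). This does not check the construct, whose species is not given. Xist, the RNA of the inactive X chromosome, had 1156 to 1846 CPM in G392E-NS and 1.41 to 1.56 CPM in GFP libraries, so the groups also differed in a sex-linked transcript, which cannot be told apart from the construct in this design. Of neural genes, the progenitor factors Sox2 and Pax6 and the neuronal Map2 had at least 767 counts in each library. Of cortical genes Emx2 and Lhx2 were present in every library, while Emx1, a marker of the dorsal cortex, had 0 counts in the G392E-NS libraries and 1 to 3 in the GFP libraries.

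Neurog2 was the most abundant member, Neurod1 and Nhlh1 stood well below it, and the other 6 genes were at or near 0. On a scale that allows for gene length (RPKM, CPM per kilobase of annotated exon), Neurog2 ranged from 5.45 to 8.35 over the 6 libraries, and no other member came near that range. Neurod1 ranged from 0.167 to 1.97 RPKM and Nhlh1 from 0.0506 to 2.08 RPKM. These 2 overlap and cannot be ordered: Neurod1 was the higher in 3 of 6 libraries. Neurod4, Neurod6 and Neurod2 followed with at most 0.166, 0.0995 and 0.0958 RPKM, with ranges that overlap each other. Nhlh2 reached 0.0120 RPKM, and Neurog1 and Atoh1 had no counts in any library, which allows up to 0.0476 CPM in the G392E-NS and 0.0495 CPM in the GFP libraries (3 counts over a group, counting error only). Some other bHLH factors of the neural lineage were far more abundant in the same libraries: Olig1, a factor of the oligodendrocyte lineage, ranged from 603 to 1399 RPKM and its relative Olig2 from 303 to 540 RPKM. Others were not: Atoh8 ranged from 1.18 to 7.47 RPKM, Helt from 1.98 to 4.76 RPKM and Bhlhe22 from 0.908 to 1.83 RPKM. Of the 12 listed, 5 had no counts in any library: Neurog3, Olig3, Bhlhe23, Atoh7 and Ptf1a.

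Of the 9 members, 3 had enough counts to be tested, Neurog2, Neurod1 and Nhlh1. In the fit over all 13775 tested genes 1 of these 3, Neurod1, lay past an adjusted p of 0.05, on the lower side (edgeR quasi-likelihood test). Over all tested genes 1.36% were lower and 4.79% higher by the same rule. In 1 of the 3, again Neurod1, the lower G392E-NS libraries did not overlap the GFP libraries in CPM, which held for 12.9% of all tested genes. Since the members were chosen with this comparison known, nothing is read from these counts.

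Neurog2 (ENSMUSG00000027967, GRCm38 chromosome 3, 127633135 to 127635631, plus strand), the proneural factor at the head of the cortical glutamatergic cascade, had 391, 322 and 285 counts in the G392E-NS libraries and 245, 276 and 284 in the GFP libraries. Scaled, that is 16.3, 13.7 and 18.6 CPM in G392E-NS and 14.1, 13.9 and 12.1 CPM in GFP. The groups overlapped, since G392E-NS replicate 2 lay below GFP replicates 1 and 2. The means were 16.2 ± 2.47 CPM in G392E-NS and 13.4 ± 1.07 CPM in GFP (SD, n = 3 each), and the log2 fold change was 0.27 (SE 0.15). The difference in means was close to the SD of the G392E-NS libraries.

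Neurod1 (ENSMUSG00000034701, chromosome 2, 79452521 to 79456751, minus strand), which Neurog2 is known to induce and which drives terminal neuronal differentiation, had 15, 19 and 7 counts in the G392E-NS libraries and 59, 107 and 75 in the GFP libraries. Its levels were 0.624, 0.806 and 0.456 CPM in G392E-NS and 3.40, 5.37 and 3.21 CPM in GFP. The lowest GFP library was several times above the highest G392E-NS library. The means were 0.629 ± 0.175 CPM in G392E-NS and 3.99 ± 1.20 CPM in GFP (SD, n = 3 each), a log2 fold change of −2.63 (SE 0.32) or 6.17-fold lower. That fold change was rank 15 from the lowest of the 13775 tested genes, and by mean CPM Neurod1 stood above only 16.5% of them. The rank restates a fold change known when the gene was chosen, so nothing is read from it. Without any single library the log2 fold change was between −2.83 and −2.36, which is no independent support, since the gene was chosen with this value known. In bulk RNA, fewer cells of a type and less RNA per cell cannot be told apart.

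Neurod1 shares its locus. Cerkl, a ceramide kinase-like gene on the same strand (ENSMUSG00000075256, 79330543 to 79456785), covers 201 of the 2729 annotated exon bases of Neurod1, or 7.37%, and Gm26755, a long non-coding RNA gene on the opposite strand (ENSMUSG00000097843), covers 154, or 5.64%. Reads in those stretches can be given to either gene or dropped, and strand cannot separate Neurod1 from Cerkl. Cerkl itself had 0, 0 and 0 counts in the G392E-NS libraries and 0, 2 and 0 in the GFP libraries. Gm26755 had 2, 2 and 2 counts in the G392E-NS and 0, 0 and 0 in the GFP libraries. Neurod1 had 7 to 107 counts, above both in every library. No other member overlaps another gene in the annotation used.

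Nhlh1 (ENSMUSG00000051251, chromosome 1, 172052292 to 172057573, minus strand), a factor that is switched on for a short time in newly born neurons, had 3, 40 and 5 counts in the G392E-NS libraries and 25, 102 and 85 in the GFP libraries. Its levels were 0.125, 1.70 and 0.326 CPM in G392E-NS and 1.44, 5.12 and 3.64 CPM in GFP. In G392E-NS replicates 1 and 3 Nhlh1 lay below every GFP library, whereas G392E-NS replicate 2 was above GFP replicate 1. The means were 0.716 ± 0.855 CPM in G392E-NS and 3.40 ± 1.85 CPM in GFP (SD, n = 3 each), and the log2 fold change was −2.20 with SE 0.77. Its size and its place relative to the threshold moved with library, tool and filter. It was not past the threshold as reported, but was so with all 6 libraries under DESeq2 (−2.23) and with no low-count filter (−2.23), and without G392E-NS replicate 2 (−4.00, SE 0.73). With G392E-NS replicate 1 left out instead it was −1.68 (SE 0.71), and not past it. G392E-NS replicate 2 also had the highest summed level of the 8 astrocyte markers, at 12448 CPM, against 7445 and 7814 CPM in G392E-NS replicates 1 and 3 and 3263 to 4678 CPM in GFP. The part of those cells in the Nhlh1 level was not tested.

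**Figure D1:**
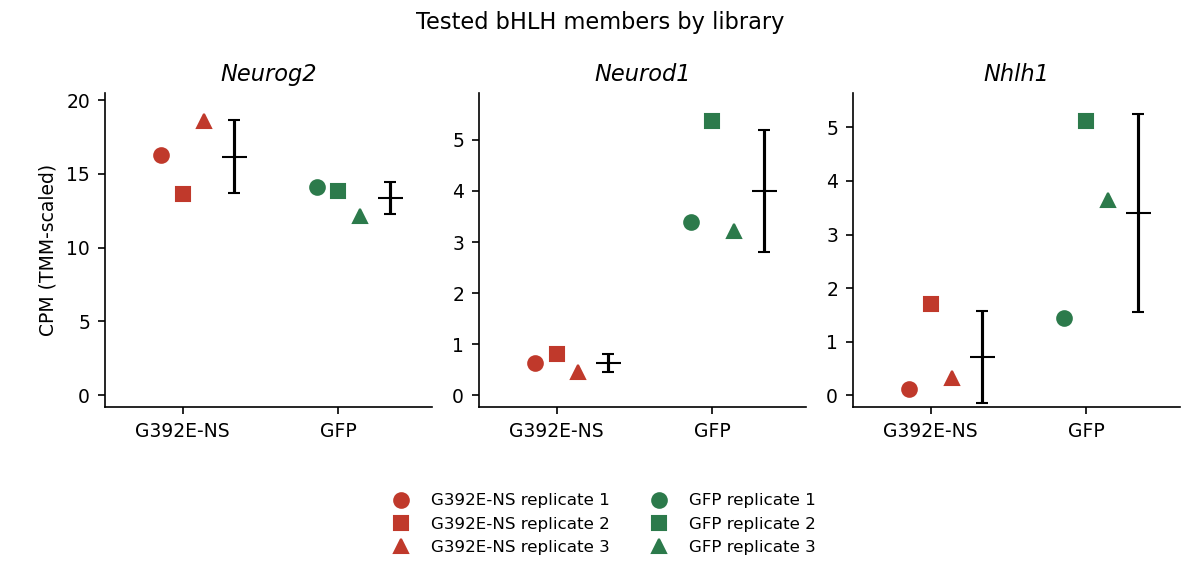
Level of Neurog2, Neurod1 and Nhlh1 in each library, in CPM scaled by TMM factors, with G392E-NS in red and GFP in green and replicates 1 to 3 as circle, square and triangle; the black mark beside each group is the mean with its SD (n = 3). Neurog2 overlaps between the groups, Neurod1 lies at 0.456 to 0.806 CPM in G392E-NS and 3.21 to 5.37 CPM in GFP, and G392E-NS replicate 2 stands apart from its group for Nhlh1 at 1.70 CPM.

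A ratio between members within a library does not depend on how libraries are scaled. For each 100 counts of Neurog2 there were 3.84, 5.90 and 2.46 counts of Neurod1 in the G392E-NS libraries and 24.1, 38.8 and 26.4 in the GFP libraries. The ratio did not overlap between the groups. This restates the Neurod1 difference known when the gene was chosen, and is no independent support. For each 100 counts of Neurog2 there were 0.767, 12.4 and 1.75 counts of Nhlh1 in G392E-NS and 10.2, 37.0 and 29.9 in GFP, and here replicate 2 of G392E-NS lay above replicate 1 of GFP. Neurod1 and Nhlh1 did not keep a fixed ratio to each other: there were 0.20, 2.11 and 0.714 counts of Nhlh1 per count of Neurod1 in G392E-NS and 0.424, 0.953 and 1.13 in GFP. In each group the library with the most Nhlh1 counts was also that with the most Neurod1 counts, replicate 2 of both.

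The 6 remaining members were too low to be tested, and only their summed counts are compared, with 95% exact binomial intervals that cover counting error only. Neurod4 (chromosome 10, 130268152 to 130280240), which acts with the neurogenins in early neurons, had 3, 6 and 0 counts in G392E-NS and 3, 11 and 13 in GFP. That is 9 counts in G392E-NS and 27 in GFP, a depth-scaled ratio of 0.321 (0.133 to 0.704), with libraries that overlap. Replicate libraries differed by more than counting error, so this interval cannot decide whether Neurod4 differed between the groups. Neurod2 (chromosome 11, 98325415 to 98329648), a factor of maturing cortical neurons, had 1, 3 and 2 counts in G392E-NS and 5, 6 and 1 in GFP, a ratio of 0.482 (0.148 to 1.39). Neurod6 (chromosome 6, 55677822 to 55681263), a marker of postmitotic glutamatergic neurons, had 2, 5 and 0 counts in G392E-NS and 3, 4 and 5 in GFP, a ratio of 0.562 (0.187 to 1.55). Intervals for these last 2 genes include equal levels, so no difference was detectable at this depth. Nhlh2 (chromosome 3, 102010076 to 102015492), the close relative of Nhlh1, had 0, 1 and 1 counts in G392E-NS and none in GFP, too few for a fold. Neurog1 (chromosome 13, 56250478 to 56252163), which shares many sites with Neurog2 in the embryo, and Atoh1 (chromosome 6, 64729125 to 64731245) had 0 counts in all 6 libraries.

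**Figure D2:**
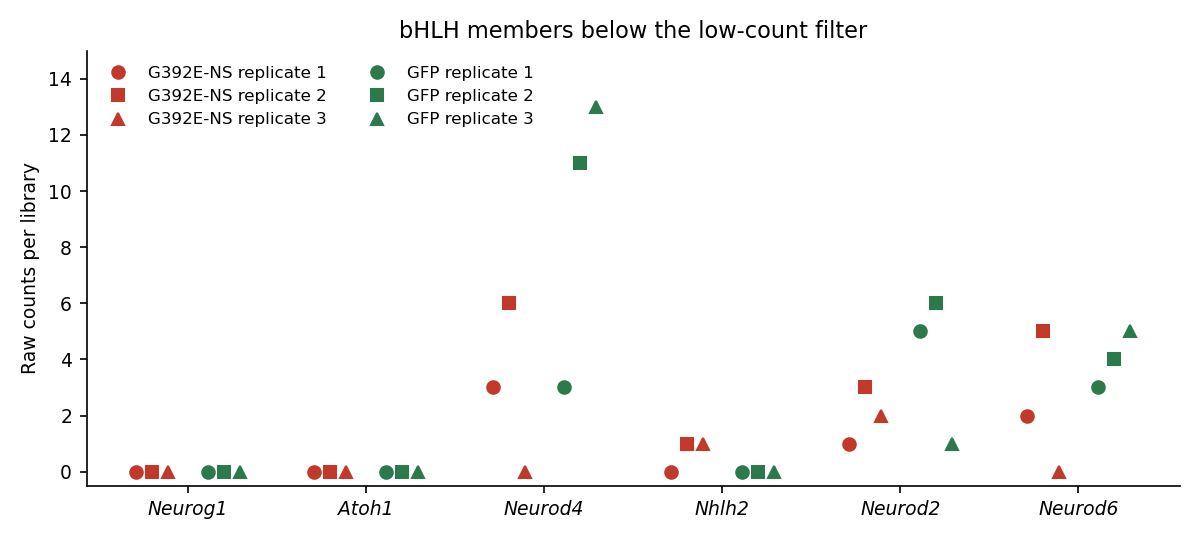
Raw counts per library of the 6 members below the low-count filter, G392E-NS in red to the left of GFP in green, with replicates 1 to 3 as circle, square and triangle. Neurog1 and Atoh1 are at 0 in every library, and the highest value is 13 counts, for Neurod4 in GFP replicate 3.

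The sequences before the start sites of the 3 tested members show how their promoters differ in the motif these factors bind. They are from RefSeq (GRCm38.p6), written 5′ to 3′ on the strand of the gene, with each E-box, CANNTG, in capitals. All 9 members matched the RefSeq table, Neurod4 with 2 start sites. Of the 250 bases before each start, the stretch that lies before every annotated exon is given, so Neurod1 is cut to 101 bases by the first exon of Cerkl.
Neurog2: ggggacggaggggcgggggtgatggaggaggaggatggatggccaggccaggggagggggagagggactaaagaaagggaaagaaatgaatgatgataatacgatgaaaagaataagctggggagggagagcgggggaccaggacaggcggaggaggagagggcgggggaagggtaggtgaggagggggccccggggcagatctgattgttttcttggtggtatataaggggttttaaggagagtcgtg
Neurod1: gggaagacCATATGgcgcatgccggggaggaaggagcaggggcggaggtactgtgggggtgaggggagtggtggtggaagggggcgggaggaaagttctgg
Nhlh1: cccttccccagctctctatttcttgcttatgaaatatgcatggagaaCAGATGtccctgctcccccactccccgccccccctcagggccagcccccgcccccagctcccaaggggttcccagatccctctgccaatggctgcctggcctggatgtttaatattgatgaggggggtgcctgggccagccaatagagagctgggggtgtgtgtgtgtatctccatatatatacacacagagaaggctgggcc
The Neurog2 stretch is chr3:127632886-127633134 on the plus strand, that of Neurod1 is chr2:79456786-79456886 and that of Nhlh1 chr1:172057597-172057846, both on the minus strand. Neurog2 holds no E-box there, Neurod1 holds 1, of the form CATATG, at position −242 from the start, and Nhlh1 holds 1, of the form CAGATG, at −203. Neurogenin and NeuroD factors are known to favour both forms.

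Over the full 250-base windows, the E-box letters were absent from Neurog1, Neurog2, Atoh1 and both starts of Neurod4, and present in Neurod1 and Nhlh1 (1 each), Nhlh2 and Neurod6 (2 each) and Neurod2 (3). Among 32841 promoter windows of the same length, 66.2% held at least 1 E-box on either strand. The form CATATG, present in Neurod1 and Neurod2, was in 3.47% of windows, and CAGATG, present in Nhlh1, Nhlh2 and Neurod2, in 14.4% on either strand. Both forms are also E-boxes and are counted among them. The N-box, CACNAG, a motif bound by Hes repressors, was found in Neurod4, Nhlh2 and Neurod6 and in 36.7% of windows. A match is a run of letters, not a bound site.

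**Figure D3:**
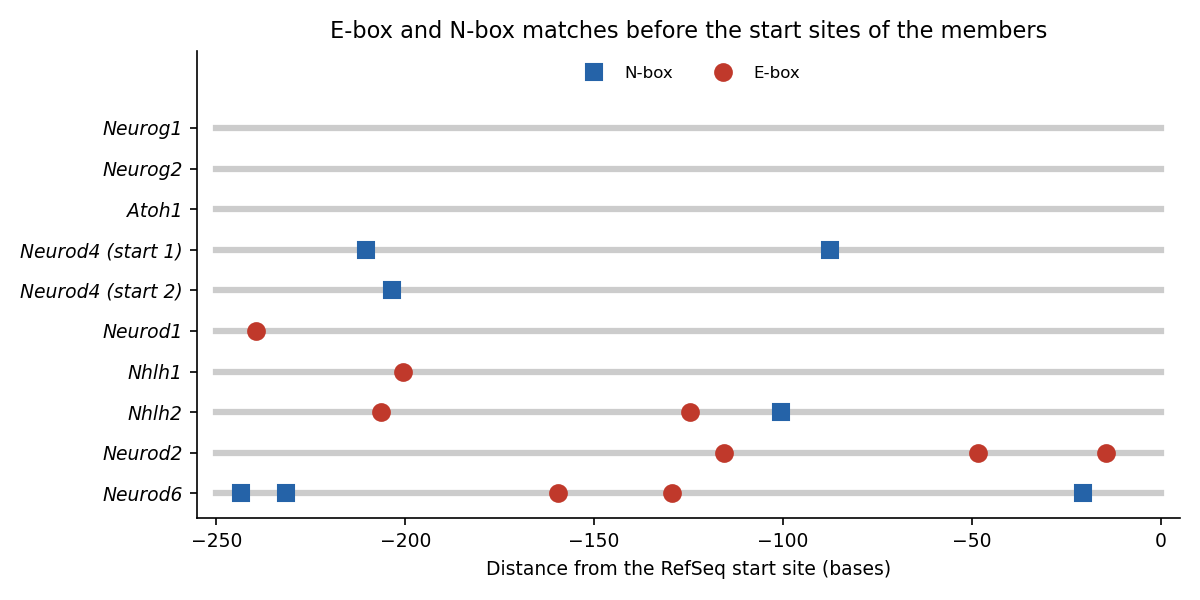
Positions of E-box (circles) and N-box (squares) matches in the 250 bases before each RefSeq start site of the 9 members, in bases from the start; Neurod4 has 2 starts. Neurog1, Neurog2 and Atoh1 have neither motif, and Neurod2 has the most E-boxes with 3.

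Factors that act with or against the members in the same step did not pass the test. Of 12 other neural bHLH factors 6 were tested and 0 were called in either direction (edgeR quasi-likelihood test), and DESeq2 and limma-voom called 0. An unadjusted p under 0.05 was found for 0 with edgeR, 0 with DESeq2 and 1 with limma-voom. Their median log2 fold change was −0.19, beside −0.00 for all genes tested. The nearest was Atoh8, a bHLH factor outside the proneural branch, at a log2 fold change of −1.01 with SE 0.50 (adjusted p = 0.284). Of 7 genes for E-protein partners and for Id proteins, which trap those partners, 0 of 7 tested were called by edgeR, DESeq2 or limma-voom. Their median was −0.03, and 0 had an unadjusted p under 0.05 with edgeR, 1 with DESeq2 and 1 with limma-voom. The nearest was the E-protein gene Tcf4, with 1216, 895 and 1042 CPM in G392E-NS and 1286, 1303 and 1263 CPM in GFP, without overlap. Its log2 fold change was −0.29 with SE 0.14 (adjusted p = 0.263, edgeR quasi-likelihood test). The other E-protein genes, Tcf3 and Tcf12, chosen after their values were seen, had 113 ± 17.5 and 665 ± 53.7 CPM in G392E-NS and 115 ± 7.23 and 701 ± 58.3 CPM in GFP (SD, n = 3 each).

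The Notch pathway, through which proneural factors and Hes repressors restrain each other, held no call with all 6 libraries. Of 18 listed genes 17 were tested, 0 were called by edgeR, DESeq2 or limma-voom, and 2 had an unadjusted p under 0.05 with edgeR. The median log2 fold change was 0.08. The nearest was Nrarp, a feedback inhibitor and target of Notch, with 32.0, 49.0 and 22.4 CPM in G392E-NS and 20.4, 17.1 and 26.9 CPM in GFP (log2 fold change 0.69, SE 0.28, adjusted p = 0.200). The ligand gene Dll3 and the repressor gene Hes5, chosen after their values were seen, depended on G392E-NS replicate 2. Dll3 had 157, 91.4 and 194 CPM in G392E-NS and 82.1, 108 and 103 CPM in GFP (log2 fold change 0.59, adjusted p = 0.208), and without that library 0.85 (adjusted p = 0.0258). Hes5 had 21.5, 42.6 and 17.5 CPM in G392E-NS and 39.6, 31.9 and 43.8 CPM in GFP (log2 fold change −0.49, adjusted p = 0.379), and without it −0.97 (adjusted p = 0.0261). Rbpj, the DNA-binding partner of Notch, was lower without G392E-NS replicate 1 (log2 fold change −0.35, adjusted p = 0.0466).

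Among genes known as targets of the proneural factors, 1 fell and none rose. Of 14 listed genes 13 were tested, with a median log2 fold change of −0.08, and 5 had an unadjusted p under 0.05 with edgeR. Elavl4, an RNA-binding protein of neurons, had 81.3, 61.9 and 57.3 CPM in G392E-NS and 108, 107 and 111 CPM in GFP. Its log2 fold change was −0.70 with SE 0.13 (adjusted p = 0.0228, edgeR quasi-likelihood test), and the groups did not overlap. Its adjusted p rose above the threshold when any 1 of the GFP libraries (0.0657 to 0.0929) was left out, or 1 of G392E-NS replicates 2 (0.0674) and 3 (0.0510). The same held with the replicate number as a block (0.0665). DESeq2 placed 3 genes of the list lower, as did the fit without G392E-NS replicate 1. The fit without G392E-NS replicate 2 placed 1 gene higher and 0 lower. Btg2 of this list, chosen after its values were seen, had 250, 181 and 175 CPM in G392E-NS and 260, 277 and 307 CPM in GFP. Its groups did not overlap, and its log2 fold change was −0.48 with SE 0.15 (adjusted p = 0.109, edgeR). Btg2 passed with DESeq2 (0.0444), with no low-count filter (0.0396) and without G392E-NS replicate 1 (0.0168). Rnd2 of this list, also chosen after its values were seen, went the other way. It had 165, 219 and 180 CPM in G392E-NS and 124, 110 and 175 CPM in GFP, with groups that overlapped. Its log2 fold change was 0.46 with SE 0.18 (adjusted p = 0.192, edgeR). Dll3 of this list, given above, had a positive log2 fold change as well. The proneural ligand Dll1 and the zinc finger gene Insm1, both chosen after their values were seen, had log2 fold changes of −0.23 (SE 0.16, adjusted p = 0.451) and 0.34 (SE 0.15, adjusted p = 0.236). Of 5 neuronal zinc finger factors tested, among them Insm1, 0 were called by edgeR, DESeq2 or limma-voom, with a median of 0.07. An unadjusted p under 0.05 was found for 1 with edgeR, 1 with DESeq2 and 2 with limma-voom. With edgeR it was Scrt2, a repressor of newly born neurons, at a log2 fold change of 0.80 with SE 0.22 (adjusted p = 0.0739).

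In the sequence of cortical glutamatergic factors, 2 of 10 tested genes rose and 0 fell, with a median of −0.02. With edgeR 5 of the 10 had an unadjusted p under 0.05. Lhx2, a homeodomain factor that establishes cortical identity, was among those that rose. It had 45.5, 49.6 and 56.0 CPM in G392E-NS and 35.5, 33.9 and 33.2 CPM in GFP, with no overlap of the groups. Its log2 fold change was 0.56 with SE 0.10 (adjusted p = 0.0218), a call lost without any 1 of the GFP libraries (0.0685 to 0.108). The call was also lost with the replicate number as a block (0.0914). Eomes, which stands between Neurog2 and Neurod1 in the cortical cascade as the factor of intermediate progenitors, was chosen after its values were seen. It had 22, 10 and 9 counts in G392E-NS and 41, 42 and 29 in GFP, or 0.915, 0.424 and 0.587 CPM in G392E-NS and 2.36, 2.11 and 1.24 CPM in GFP. Its groups did not overlap, and its log2 fold change, −1.54 with SE 0.38, stayed outside the threshold (adjusted p = 0.0543). It passed with DESeq2 (0.0207), with no low-count filter (0.0108), without G392E-NS replicate 1 (0.0357) and without GFP replicate 3 (0.0462). Tbr1, the next factor in that cascade, had 18, 16 and 4 counts in G392E-NS and 14, 11 and 15 in GFP (log2 fold change −0.17, SE 0.40, adjusted p = 0.838).

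Genes of the hindbrain lineage in which Atoh1 and Neurod1 act included 2 that fell among 9 tested and 0 that rose, with a median of −0.20. With edgeR 4 of the 9 had an unadjusted p under 0.05. En2, a factor of the midbrain-hindbrain boundary, and Zic1, a zinc finger factor of granule cell precursors, had 1.63 ± 0.469 and 29.1 ± 1.85 CPM in G392E-NS and 16.5 ± 1.72 and 92.6 ± 6.97 CPM in GFP (SD, n = 3 each). En2 fell, with a log2 fold change of −3.37 and SE 0.22 (adjusted p = 0.000229), and Zic1 fell, with one of −1.67 and SE 0.10 (adjusted p = 0.000153). Both kept their calls in all 13 alternative settings. Cbln1 of this list, chosen after its values were seen, had 4.24, 3.39 and 6.33 CPM in G392E-NS and 8.87, 7.83 and 9.24 CPM in GFP. Its log2 fold change was −0.91 with SE 0.24 (adjusted p = 0.0666, edgeR). Cbln1 passed with DESeq2 (0.00753), limma-voom (0.0479), no low-count filter (0.0139) and without G392E-NS replicate 3 (0.0263), and each of these placed 3 genes of the list lower. Atoh1 itself was at 0, as was Gabra6, a marker of mature granule cells, and Barhl1, a target of Atoh1, had at most 2 counts in a library. Of 8 sensory and motor neuron markers 2 were tested and 1 fell: Isl2, a homeodomain factor of motor neurons, had 6, 8 and 7 counts in G392E-NS and 53, 74 and 93 in GFP (log2 fold change −3.39, SE 0.29, adjusted p = 0.000797). Isl1, Mnx1 and Prrxl1 of the same list had no counts. In the GABAergic list 1 of 4 tested genes fell and 0 rose, with a median of −0.02, and 3 had an unadjusted p under 0.05 with edgeR. Gad1, the GABA-synthesising enzyme, fell by 0.65 (SE 0.10, adjusted p = 0.00854), a call lost without GFP replicate 1 (0.0539) or GFP replicate 2 (0.0518).

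**Figure D4:**
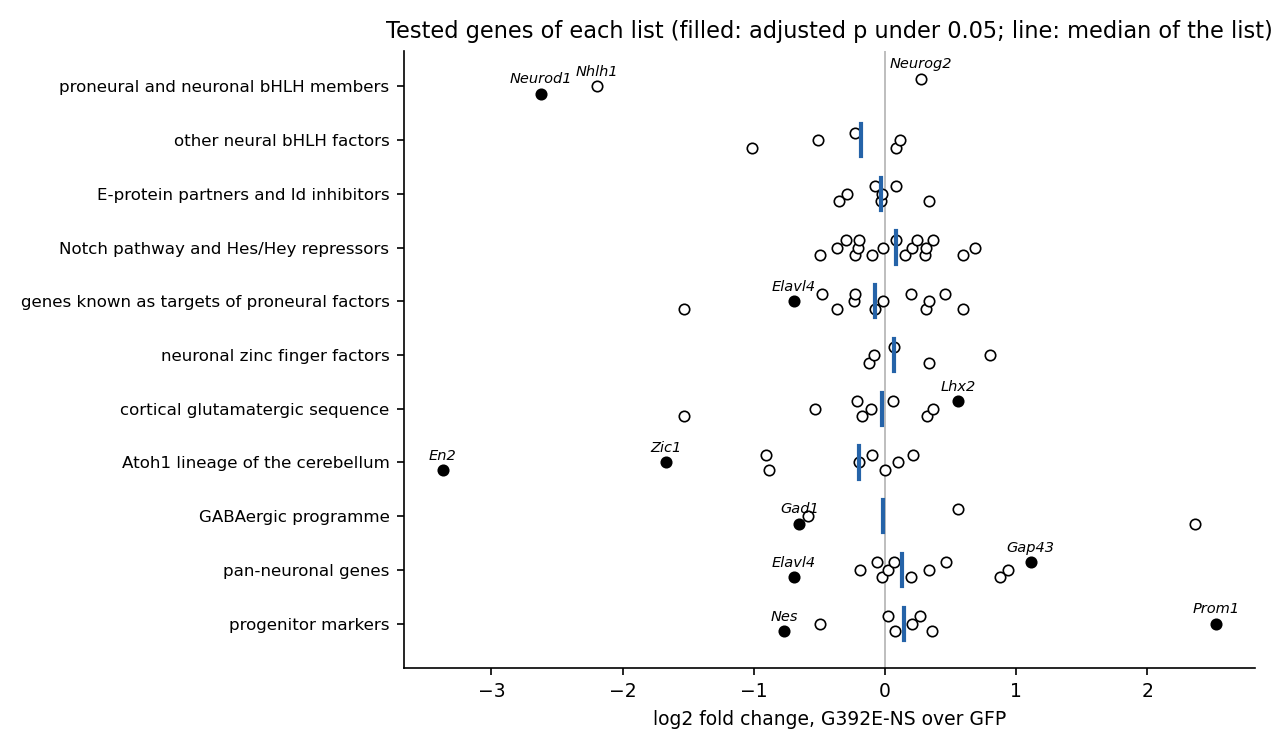
Log2 fold change, G392E-NS over GFP, of tested genes in the bHLH set and in 10 lists of related genes; filled points passed an adjusted p of 0.05 (edgeR), named where filled or in the bHLH set, and blue lines mark each list's median. Medians of the related lists lie between −0.20 and 0.14, with En2 at −3.37 and Prom1 at 2.52 as the outermost called genes.

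Levels of neuronal, progenitor and other cell markers stood beside these values as follows. Of 12 pan-neuronal genes tested 1 rose and 1 fell, with a median log2 fold change of 0.13, and 5 had an unadjusted p under 0.05 with edgeR. Gap43, a growth cone protein, rose by 1.11 (SE 0.15, adjusted p = 0.00585), and Elavl4, given above, fell. Without GFP replicate 3 the count was 3 higher and 0 lower, with Syt1, a synaptic vesicle protein (log2 fold change 1.17, adjusted p = 0.0233), and Tubb3, a neuronal tubulin (0.62, adjusted p = 0.0369), gained; both were chosen after their values were seen. DESeq2 and the fit with no low-count filter also called Syt1 higher (adjusted p = 0.00387 and 0.00343). The summed level of the 14 listed pan-neuronal genes was 3365 to 4599 CPM in G392E-NS and 3576 to 4143 CPM in GFP. Most of it was Map2, at 2340 to 3087 CPM in G392E-NS and 2604 to 2841 CPM in GFP, so it says little of the other genes. The 8 progenitor markers summed to 3931 to 4847 CPM in G392E-NS and 4097 to 4707 CPM in GFP. Most of that was Fabp7, at 2120 to 2984 CPM in G392E-NS and 2392 to 3034 CPM in GFP. Of the progenitor markers 1 rose, Prom1, by 2.52 (SE 0.29, adjusted p = 0.00303). Another 1 fell, Nes, which encodes the intermediate filament nestin, by 0.77 (SE 0.18, adjusted p = 0.0480). The call of Nes was lost without any 1 of the GFP libraries (0.0657 to 0.170), and also without replicate 2 (0.0754) or 3 (0.104) of G392E-NS. It was also lost with the replicate number as a block (0.113), and narrowly with upper-quartile scaling (0.0509) and a filter of 1 CPM in 3 libraries (0.0510).

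Of 8 astrocyte markers 3 rose and none fell, with a median log2 fold change of 1.22. Aldoc and Slc1a2, an aldolase and a glutamate transporter of astrocytes, rose by 1.99 (SE 0.36, adjusted p = 0.0185) and 1.32 (SE 0.22, adjusted p = 0.0144). The call of Aldoc was lost without GFP replicate 1 (0.0886) or 2 (0.0550) and that of Slc1a2 without GFP replicate 2 (0.0638) or 3 (0.0517). With the replicate number as a block both calls were lost (0.0913 for Aldoc, 0.0810 for Slc1a2), and 0 of the 8 markers were called. Leaving out 1 library gave 0 calls without GFP replicate 2, 1 each without GFP replicate 1 or 3, and up to 4 otherwise. DESeq2 called 5 of 7 higher and the fit with no low-count filter 7 of 8, and 7 of 8 had an unadjusted p under 0.05 with edgeR. Of 7 oligodendrocyte precursor markers 1 rose, Pdgfra, by 1.12 (SE 0.26, adjusted p = 0.0435), a call lost without any 1 of the GFP libraries (0.0512 to 0.172) or without G392E-NS replicate 2 (0.0538). It was also lost with the replicate number as a block (0.121). That list summed to 2760 to 5050 CPM in G392E-NS and 3220 to 3901 CPM in GFP. Microglia markers summed to at most 0.326 CPM in G392E-NS and 0.351 CPM in GFP, with Csf1r, C1qa and C1qb at 0, and endothelial markers to at most 1.23 CPM in G392E-NS and 1.15 CPM in GFP, with Cdh5 and Cldn5 at 0. Of the 6 mesenchymal markers 1 was tested: Twist1, a mesenchymal bHLH factor, had 34, 45 and 50 counts in G392E-NS and 0, 0 and 0 in GFP (adjusted p = 0.00602). Pdgfrb, a receptor of pericytes and fibroblasts, had 11, 36 and 2 counts in G392E-NS and 0, 0 and 4 in GFP, below the filter, and was called higher with no low-count filter (log2 fold change 3.37, adjusted p = 0.0189). Lum and Dcn were at 0, and Col1a1 had at most 5 counts in a library. The list summed to 1.87 to 3.65 CPM in G392E-NS and 0.0502 to 0.214 CPM in GFP. The part of these cell types in the levels of Neurod1 and Nhlh1 was not tested.

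Genes whose pattern over the 6 libraries was most like that of each tested member were found by the root mean square difference of log2 CPM, each gene centred on its own mean. Nearest to Neurod1 were Zic4, a zinc finger factor, at a difference of 0.20, Ddr2, a collagen receptor kinase, at 0.23, and Srpk3, a kinase of splicing factors, at 0.31. Zic4 had 1.08, 1.53 and 0.913 CPM in G392E-NS and 6.39, 6.67 and 5.35 CPM in GFP. Nearest to Neurog2 were Chtf18 (0.02), Sppl2b (0.04) and Tmem81 (0.05). Chtf18, a factor of DNA replication, had 2.04, 1.65 and 2.28 CPM in G392E-NS and 1.73, 1.76 and 1.45 CPM in GFP. Nhlh1 had no near neighbour: the closest were Cntn2, an axonal adhesion protein, at 0.62, Col6a3 at 0.76 and Nupr1 at 0.84. Cntn2 shared the rise of G392E-NS replicate 2 within its group, with 0.333, 1.27 and 0.652 CPM in G392E-NS and 1.73, 3.31 and 2.61 CPM in GFP. These likenesses are what the search selected for, describe 6 libraries in 2 groups and were not tested.

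**Figure D5:**
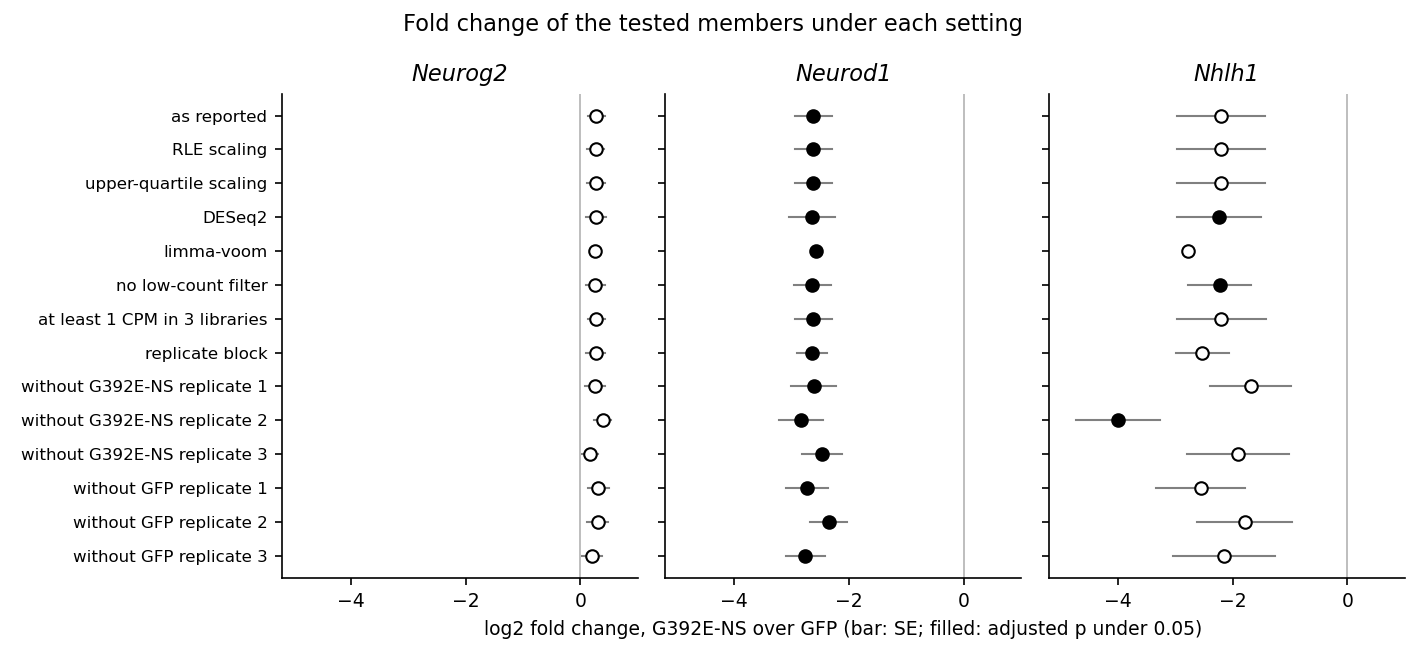
Log2 fold change, G392E-NS over GFP, of Neurog2, Neurod1 and Nhlh1 as reported and under 13 alternative settings; bars are standard errors (none for limma-voom) and filled points lie past an adjusted p of 0.05. Neurod1 stays between −2.83 and −2.36, Neurog2 between 0.16 and 0.39, and Nhlh1 moves to −4.00 without G392E-NS replicate 2.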

How the data were processed

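RNA from 6 libraries, 3 of G392E-NS and 3 of GFP cells, was analysed from the deposited table of raw counts per Ensembl gene, which the authors did not normalise, as its whole-number values show. The submitters' processing notes name GRCm38, DESeq2 1.4.5, R 3.2.2, HTSeq 0.6.1 and TopHat2 2.0.12, with no role or order. For annotation release and strand setting nothing is stated in the labels.

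Symbols, positions and exon lengths came from GENCODE M21 (GRCm38), which paired 37693 of 39179 genes. Replicate pairs differed by 8.02 to 24.1 times sampling noise in GFP and 37.0 to 56.4 times in G392E-NS (chi-square per degree of freedom over genes with at least 10 counts). So none was a duplicate, and the G392E-NS libraries were the more variable. The edgeR fit did not let the spread of a gene differ between the groups.

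The test was edgeR 4.0.16 (R 4.3.3) quasi-likelihood, with filterByExpr (13775 genes), TMM scaling without covariates. The Benjamini-Hochberg method adjusted p over every tested gene, with a threshold of 0.05. It was tested on simulated data. CPM and RPKM were computed with TMM-scaled totals, and log2 CPM for pattern likeness with a prior count of 2. Alternatives were RLE and upper-quartile scaling, DESeq2 1.42.0, limma-voom (limma 3.58.1), no filter, at least 1 CPM in 3 libraries, a replicate block and leaving out each library.

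The text names the 9 members, genes overlapping them, up to 4 called genes of each of 16 lists or the nearest one, and the 3 genes nearest in pattern to each tested member; not every gene picked is described, and some listed genes, counted in their lists, are not reported here. The members and lists were chosen with earlier results of these data known. Promoters were read from RefSeq, 250 bases before each start.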

Additional observations from a re-analysis of the deposited data

How the results depend on the processing

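Neurog2, Neurod1 and Nhlh1 kept their direction in all 13 alternatives. As a description, Neurod1 was past the threshold in each, and Nhlh1 was so only with DESeq2, with no low-count filter and without G392E-NS replicate 2. Of all genes, 4.79% were higher and 1.36% lower as reported. DESeq2 placed 6.68% higher (1098 genes) and 2.14% lower (352), with 2 members lower. With no low-count filter 5.20% were higher (1205), 1.61% lower (374) and 2 members lower, and 16 genes of the other lists were higher, against 9. Leaving out each library in turn gave 1.38% to 7.04% higher and 0.324% to 2.81% lower, 1 to 2 members lower, and 3 to 11 list genes higher and 3 to 9 lower. The low ends of the all-gene shares came without GFP replicate 1 and the high ends without G392E-NS replicate 1. Counts of higher genes also moved by more than 1.5 times without G392E-NS replicate 2 (428), GFP replicate 2 (207) or GFP replicate 3 (382), against 660. Such fits have fewer samples. With the replicate number as a block 1.58% of genes were higher (217) and 0.363% lower (50), 1 member was lower and 3 list genes were higher. The labels do not say whether the numbers pair the samples. Same-numbered libraries had deviations from their group means that correlated at 0.03, −0.38 and −0.25. With 3 libraries per group such deviations constrain each other, so they cannot decide whether samples were paired. The cause of these shifts was not tested. Depth limits Neurod4, Neurod2, Neurod6 and Nhlh2, with at most 13 counts in a library.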
